A study of Mus musculus with 2 samples.

Results

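The matrix metalloproteinases (MMP), the disintegrin metalloproteinases (ADAM), the secreted ADAMTS proteases with their ADAMTS-like relatives, and the tissue inhibitors of metalloproteinases (TIMP) were followed in cultured mouse RPE. The RPE (retinal pigment epithelium) is a single sheet of pigmented cells that nourishes the photoreceptors. A gene was a member if its annotated symbol was Mmp, Adam, Adamts, Adamtsl or Timp followed by a digit. By this rule 70 of 18193 named genes were members: 18 MMP, 28 ADAM, 15 ADAMTS, 5 ADAMTS-like and 4 TIMP genes. They were read by 124 probe sets that each name 1 member alone. A probe set is a group of short oligonucleotides on the array with 1 summary signal, and some match sequence shared between transcripts. The series compared 2 cultures with 1 array each, so each value was measured once, no p-value exists and precision is limited by the number of arrays. One group was untreated. The other was given IFNg (interferon gamma), which activated lymphocytes secrete, at a final 100 U/ml over 24 h. Both were grown for 14 days in medium with serum and kept in serum-free medium overnight before RNA extraction. The labels describe the cells as mostly cytokeratin-positive. They give no mouse strain, age or genotype, and they do not say whether the cultures came from different animals or how the overnight step overlapped with IFNg. The question of the series was how RPE cells exposed to IFNg suppress T cells through PD-L1.

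MMPs cut collagens, basement membrane and other matrix proteins, and most are secreted as inactive precursors. ADAMs sit in the plasma membrane, where those with an active protease domain release the outer part of growth factors, cytokines, receptors and adhesion molecules, a step called shedding. ADAMTS enzymes trim procollagens and cut large proteoglycans such as aggrecan and versican, ADAMTS-like proteins lack the protease domain, and TIMPs bind and block these enzymes. Under the retina this system maintains Bruch's membrane, the sheet of matrix on which the RPE rests, and Timp3 is a resident protein of that sheet.

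The median signal was 20.1 on the untreated array and 20.8 on the IFNg array. The median over both, 20.4, served as a floor for all lower signals, and a gene above it on 1 or both arrays counted as measured. Where 1 array lay at the floor, the fold is a bound and is written "at least". A response to IFNg was visible in Irf1, a transcription factor that IFNg induces, with signals of 319 and 3391 on the untreated and the IFNg array. The identity of the cells was checked with marker genes. Of 16 RPE markers, 12 were measured, among them Otx2 (411 untreated, 389 with IFNg) and Tyr (986 and 606), while the visual cycle gene Rpe65 and also Best1, Rgr and Dct were at the floor on both arrays. On the IFNg array the RPE markers Rlbp1, Ttr, Rdh5 and Tyrp1 had signals lower by 2-fold or more. Krt18 (1390 and 2446) and Mitf (66 and 99.6) were higher by less than 2-fold. The summed signals of the 16 RPE markers were 4100 and 4341, a rise carried by the bright Krt18. Of the 12 measured RPE markers 8 were lower on the IFNg array, beside 7324 of all 12743 measured genes. Their median log2 ratio (IFNg over untreated) was -0.41, and that of all measured genes was -0.12. All 10 fibroblast markers were above the floor on both arrays, with summed signals of 58914 and 54788. Of 14 macrophage and microglia markers 11 were measured, with summed signals of 766 and 505 and with Itgam, Aif1 and Cx3cr1 at the floor on both arrays. In such bulk samples fewer cells of a type and less RNA per cell cannot be told apart, and the part of these shifts in the values of the proteases was not tested.

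Most metalloproteinase and inhibitor genes above the floor on both arrays differed by less than 2-fold between the cultures. Of 45 measured members, 3 were at least 2-fold higher on the IFNg array, 2 were at least 2-fold lower and 40 had neither call. Among the 40 are bounds, with 4 members at the floor on the untreated array and 7 on the IFNg array, whose true ratio may be larger than 2-fold. The sheddase genes Adam8 and Adam17 and the proteoglycanase gene Adamts9 were higher, and Adamts15 and Adamtsl3 were lower. These shares, 6.67% higher and 4.44% lower, stood beside 8.82% higher and 4.48% lower among all 12743 measured genes. With 3 and 2 genes behind them, neither share is read as a difference from the background. The median log2 ratio (IFNg over untreated) was -0.26 over the measured members, from -1.38 to 1.38, and -0.12 over all measured genes. The other 25 members were at the floor on both arrays: 6 MMP, 14 ADAM and 5 ADAMTS genes. At the level of probe sets, 3 of 80 measured ones were at least 2-fold higher and 5 at least 2-fold lower, against 9.36% and 4.69% of all measured probe sets that name 1 gene.

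**Figure D1:**
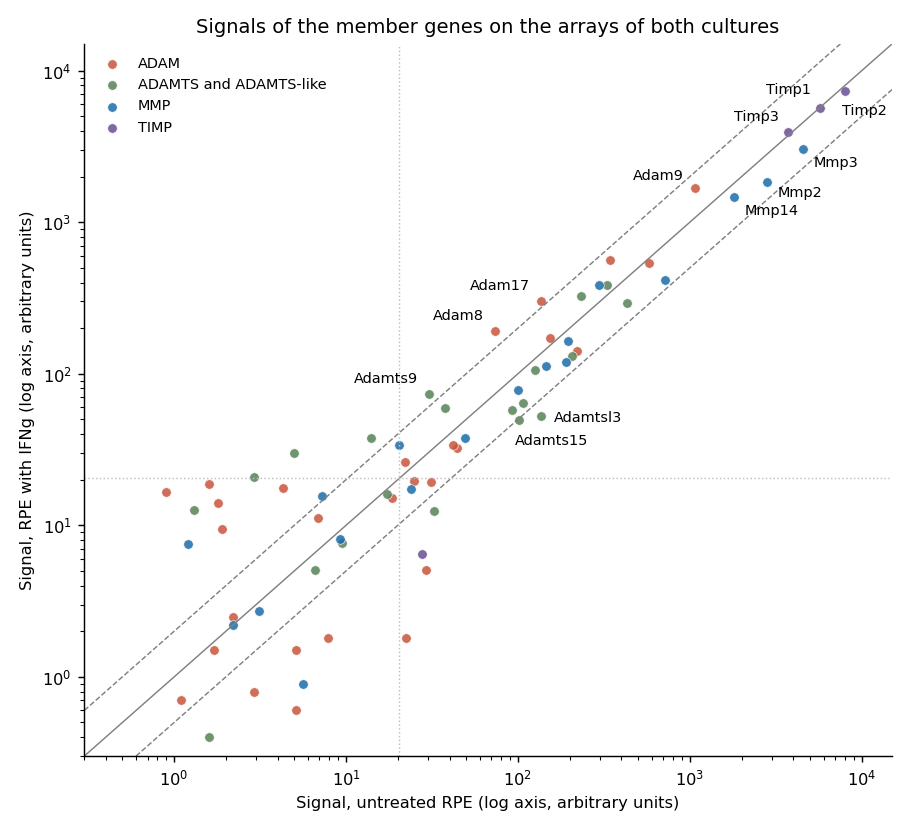
Signal of each of the 70 member genes on the untreated array (x axis) and the IFNg array (y axis), both on log axes in arbitrary units, coloured by family, with a solid line at equal signals, dashed lines at 2-fold and dotted lines at the floor of 20.4. Most genes above the floor on both arrays lie between the dashed lines, with Adam8, Adam17 and Adamts9 above them and Adamts15 and Adamtsl3 below.

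This design offers a technical spread alone, that between probe sets of a gene. Among those above the floor on both arrays, the SD of their log2 ratios was 0.44 over 4419 genes and 0.39 over the 15 members that have 2 or more such probe sets. Of 21 members with 2 or more measured probe sets, 14 had all their ratios on 1 side of 0 (10 below and 4 above) and 7 had ratios on both sides. This spread holds no variation between cultures.

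Among the MMP genes, none of the 12 measured ones was called past 2-fold (Mmp17 and Mmp24 give bounds), beside 8.82% higher and 4.48% lower among all genes. A ratio below 0 was found in 7324 of the 12743 measured genes and in 10 of the 12 MMP genes. The median log2 ratio of the MMP genes was -0.36. The 10 also lay below the median of all measured genes. The count of 10 of 12 was the same with quantile normalization and with a loess curve. Values without rescaling equal the reported ones, and a common 75th percentile moved the MMP ratios downwards, so neither could lower the count. Mmp3, the gene for stromelysin 1, which cuts proteoglycans and activates other MMPs, had signals of 4538 (untreated) and 3035 (IFNg), a log2 ratio of -0.58. Mmp2, the gene for gelatinase A, which cuts denatured and basement membrane collagens, had signals of 2797 and 1836 (-0.61), and its second probe set gave 2623 and 1906 (-0.46). Mmp14, the gene for the membrane-bound protease that activates pro-MMP2, had 1811 and 1466 (-0.30), with -0.47 and -0.01 for its other probe sets. All 3 genes were lower on the IFNg array, by amounts close to the spread between probe sets of a gene.

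The MMP gene nearest the 2-fold line was Mmp23, which encodes a membrane-anchored member of the family, at 713 and 416 (log2 ratio -0.78). Its other probe set read 516 and 420, a ratio of -0.30. Mmp11 (stromelysin 3) stood at 191 and 119 (-0.68), Mmp16, a membrane-type MMP, at 146 and 112 (-0.38), and Mmp19 at 99.6 and 78.5 (-0.34). Every measured probe set of Mmp16 and Mmp19 was lower with IFNg as well, down to -0.58 and -0.64. On the other side of 0 were Mmp13, the gene for collagenase 3, with 295 and 388 (0.40), and Mmp24, a further membrane-type MMP, with 20.4 and 34.1 (at least 0.74), next to the floor. Mmp17, another membrane-type MMP, was near it as well, at 24 and 17.4. The gelatinase B gene Mmp9 was at the floor on both arrays by both of its probe sets, with signals of 7.2 and 15.7 by the brighter one.

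A group of MMP genes lies side by side in the mouse genome. In the reference gene table (assembly GRCm38.p6) 10 MMP genes follow each other with few other genes between them: Mmp13, Mmp12, Mmp1b, Mmp3, Mmp1a, Mmp10, Mmp8, Mmp27, Mmp20 and Mmp7. Of these, 4 were above the floor on both arrays. Mmp12, the gene for macrophage metalloelastase, had 195 and 163 (log2 ratio -0.25), Mmp10 (stromelysin 2) had 49 and 37.8 (-0.37), and Mmp3 and Mmp13 had the values given above. Mmp1a, Mmp1b, Mmp7, Mmp8 and Mmp20 were at the floor on both arrays, and the level of Mmp27, which is not among the 70 members, was not analysed here. The 4 measured genes lie in the part of the run from Mmp13 to Mmp10, with Mmp1b and Mmp1a at the floor among them. All 4 stayed within 2-fold. In the part from Mmp8 to Mmp7 no member was measured. Of 11 measured macrophage markers 8 were lower on the IFNg array, 3 of them as bounds, beside 7324 of all 12743 measured genes. The other 3 were higher, among them C1qa (26.2 and 50.8) and C1qb (44.5 and 66.4). The part of macrophages in the value of Mmp12 was not tested.

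The promoters of this run are shown because they share a short sequence that the choice of members did not use. RefSeq promoter windows (GRCm38.p6) were matched for 41 of the 70 members, and the 250 bases before each start were searched for TGANTCA, the letters of an AP-1 type site, which read the same on either strand. In the run, 8 of 10 genes held TGANTCA, and the 2 without it are Mmp8 and the non-member Mmp27. The last 100 bases before the start are printed 5′ to 3′ with these letters in capitals, for the 8 genes and, for comparison, for Mmp8, which has none in this window.
Mmp13 (chr9:7272414-7272513, + strand): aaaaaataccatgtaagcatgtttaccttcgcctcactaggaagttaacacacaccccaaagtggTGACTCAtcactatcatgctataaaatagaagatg
Mmp12 (chr9:7347274-7347373, + strand): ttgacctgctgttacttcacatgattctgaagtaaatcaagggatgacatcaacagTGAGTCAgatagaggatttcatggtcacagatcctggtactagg
Mmp1b (chr9:7388027-7388126, - strand): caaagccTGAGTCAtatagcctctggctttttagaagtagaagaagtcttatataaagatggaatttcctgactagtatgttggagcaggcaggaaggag
Mmp3 (chr9:7445722-7445821, + strand): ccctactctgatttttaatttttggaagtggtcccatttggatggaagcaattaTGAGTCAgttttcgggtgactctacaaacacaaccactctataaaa
Mmp1a (chr9:7464041-7464140, + strand): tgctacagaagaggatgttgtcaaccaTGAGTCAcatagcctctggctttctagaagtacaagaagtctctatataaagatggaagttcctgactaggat
Mmp10 (chr9:7502242-7502341, + strand): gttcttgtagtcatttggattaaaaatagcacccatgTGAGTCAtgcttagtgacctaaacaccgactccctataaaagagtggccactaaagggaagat
Mmp20 (chr9:7628131-7628230, + strand): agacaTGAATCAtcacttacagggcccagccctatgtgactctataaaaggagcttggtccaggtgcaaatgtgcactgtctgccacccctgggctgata
Mmp7 (chr9:7691990-7692089, + strand): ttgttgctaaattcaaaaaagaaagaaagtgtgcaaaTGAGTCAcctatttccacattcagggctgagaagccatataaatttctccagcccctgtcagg
Mmp8 (chr9:7558329-7558428, + strand): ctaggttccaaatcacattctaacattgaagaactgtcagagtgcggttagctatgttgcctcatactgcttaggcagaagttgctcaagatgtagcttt

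The AP-1 type letters stood 35 bases before the start in Mmp13, 44 in Mmp12, 46 in Mmp3, 63 in both Mmp10 and Mmp7, 73 in Mmp1a, 93 in Mmp1b and 95 in Mmp20, counted to the first letter. Mmp12 and Mmp7 have a second window without them. Over all members with a window, 10 of 41 (24.4%) held TGANTCA, the other 2 being Adam19 and Adam25, against 7.82% of 27025 genes in the table. Of the 8 genes of the run, Mmp13, Mmp12, Mmp3 and Mmp10 were above the floor on both arrays and Mmp1a, Mmp1b, Mmp7 and Mmp20 were at it. Of the 5 members past 2-fold, Adam8, Adam17, Adamts9 and Adamtsl3 had a window, and none of these 4 windows held TGANTCA. A match or its absence describes these letters in this window and not the binding of a factor.

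Of 14 measured ADAM genes, 2 (14.3%) passed 2-fold upwards on the IFNg array and none downwards, beside 8.82% and 4.48% of all genes. The other 12 had neither call, 4 of them as bounds. The median log2 ratio over all 14 was -0.13, a sign that turned with the floor (0.46 with a lower and 0.66 with a higher one) and with shared-sequence probe sets left out (0.01). Over the 10 above the floor on both arrays the median was 0.21. Adam8 encodes a protease of leukocytes and inflamed tissue. Its single probe set read 73.6 (untreated) and 191 (IFNg), a 2.60-fold higher signal (log2 ratio 1.38). It passed 2-fold under all 9 alternative ways of processing other than a higher threshold. Some of these cannot change the ratio of a gene with a single probe set above the floor. Of 4 neutrophil markers, 2 were just above the floor on the untreated array and all were below it on the IFNg array, and macrophage markers had a median log2 ratio of -0.39. The part of such cells in the Adam8 value was not tested.

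Adam17 encodes the enzyme that sheds TNF and ligands of the EGF receptor. Its brightest probe set read 136 and 304, a 2.24-fold higher signal on the IFNg array (log2 ratio 1.17). The other probe sets read 103 and 130 (0.33) and 55.3 and 80.4 (0.54), so all 3 were higher and 1 passed 2-fold. Averaged over the 3 the ratio was 0.68. Adam10, the gene for the enzyme that cuts Notch receptors and many adhesion molecules, stood at 343 and 560 (0.71), with further probe sets at 0.29 and -0.30. Adam9, for a membrane protease that can release growth factor precursors, read 1067 and 1691 (0.66) by its single probe set. Adam8, Adam17, Adam10 and Adam9 had the highest ratios among the ADAM genes, and those of Adam10 (0.18) and Adam17 were smaller when probe sets were averaged. They do not stand for the family, as Adam12 (0.16), Adam15 (-0.12), Adam33 (-0.31) and Adam19 (-0.65) lay lower by their brightest probe sets.

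The remaining measured ADAM genes lay at or below a log2 ratio of 0.25. Adam15, another membrane protease, had 581 and 536 (-0.12) by a probe set whose identifier marks shared sequence, and -0.51 to 0.25 by 3 others. Adam19 (meltrin beta) read 221 and 141 (-0.65), and its dimmer probe set was below the floor with IFNg, 70.4 against 15.5 (at least 3.45-fold lower). Adam12 (meltrin alpha) read 154 and 172 (0.16), while its dimmer probe set read 68.9 and 29.2, which is 2.36-fold lower. For these 2 genes the call depends on the probe set, and averaged over both probe sets Adam12 had a ratio of -0.54 and Adam19 one of -1.22. Adam23 (-0.45), Adam33 (-0.31) and Adam22 (0.25) were dim, with signals between 21.9 and 44.5, and Adam1a, Adam1b, Adam5 and Adam28 were at the floor with IFNg and at most 31.2 without it.

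Of the 14 ADAM genes at the floor on both arrays, Adam2, Adam3, Adam18, Adam24, Adam25, Adam26a, Adam32 and Adam34 are known from the testis or the sperm surface. Adam4, Adam6a, Adam6b, Adam7, Adam11 and Adam21 were the others, and no statement is made here on the tissues they are known from. All signals of the 14 genes on either array were at most 18.7. Adam9 neighbours 4 other members in the reference (Adam18, Adam3, Adam5 and Adam32), of which 3 were at the floor on both arrays and Adam5 read 24.7 and 19.7.

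**Figure D2:**
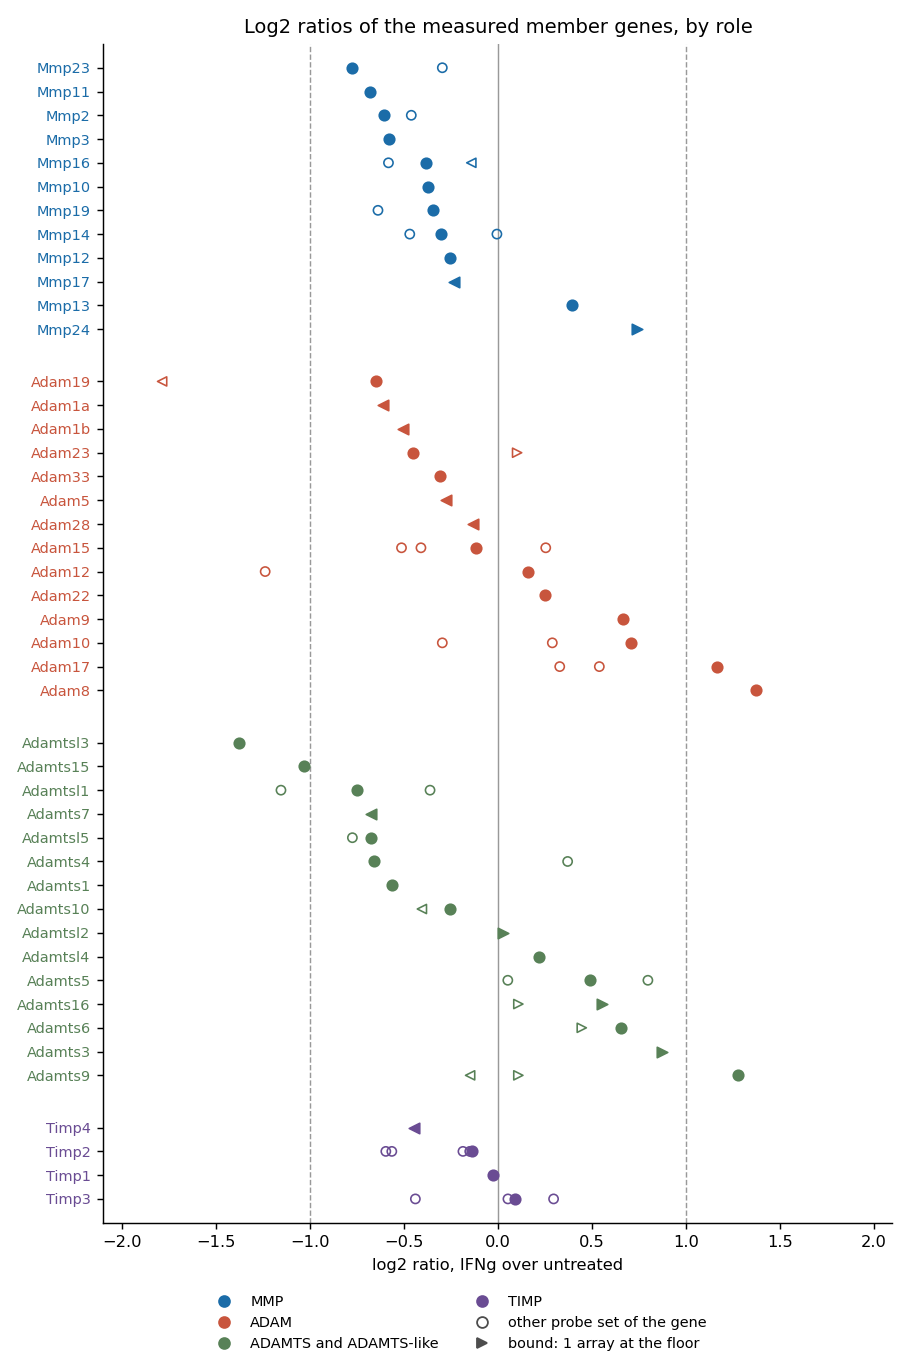
Log2 ratio of IFNg over untreated signal (x axis) for the 45 measured member genes (y axis), coloured by family, with filled symbols for the probe set that stands for the gene, open ones for its others, triangles for bounds and dashed lines at 2-fold. Filled symbols lie mostly left of 0 for MMP genes and close to 0 for Timp1, Timp2 and Timp3. Open symbols of Adam12, Adam19 and Adamtsl1 lie past 2-fold where the filled ones do not.

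ADAMTS genes were spread to both sides. Of 10 measured ADAMTS genes, 5 had a ratio above 0 and 5 below, with 1 of 10 past 2-fold each way, beside 8.82% and 4.48% of all genes. Adamts9, whose product cuts aggrecan and versican, read 30.2 and 73.2, a 2.42-fold higher signal with IFNg (log2 ratio 1.28). Its other probe sets were next to the floor on 1 array and below it on the other, at 22.6 and 1.1 and at 2 and 22, so the value rests on a single dim probe set. Adamts15, for another proteoglycanase, read 101 and 49.5, a 2.04-fold lower signal (-1.03) by its only probe set. Its neighbour Adamts8 was at the floor on both arrays.

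The aggrecanase genes Adamts1, Adamts4 and Adamts5 stayed within 2-fold. Adamts1 read 433 and 293 (log2 ratio -0.56) and Adamts4 read 206 and 130 (-0.66), with 36.8 and 47.6 (0.37) by a dimmer probe set. Adamts5, which neighbours Adamts1 in the reference, read 233 and 328 (0.49), with 0.80 and 0.05 for other probe sets. So the 2 neighbours lay on different sides of 0. Adamts3, for a procollagen-trimming enzyme, was nearest to 2-fold on the higher side, at 14 and 37.4 (at least 1.83-fold). Adamts6 (37.8 and 59.5) and Adamts16 (5 and 29.9) also had higher signals with IFNg, Adamts10 (126 and 106), whose product acts on fibrillin microfibrils, and Adamts7 (32.6 and 12.5) had lower ones, and Adamts12, Adamts18, Adamts19 and Adamts20 were at the floor on both arrays.

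The 5 ADAMTS-like genes, for matrix proteins without protease activity, had a median log2 ratio of -0.67. Adamtsl3 was the lowest of all members, with 136 and 52.5 by its only probe set, a 2.60-fold lower signal (-1.38). Adamtsl1 read 108 and 63.9 (-0.75), and its other probe sets read 83.7 and 37.6 (-1.15) and 67.3 and 52.4 (-0.36). Adamtsl5 had 91.9 and 57.6 (-0.67), with -0.77 by its second probe set. All 6 probe sets of these 3 genes were lower on the IFNg array. Adamtsl4 (331 and 385, 0.22) and Adamtsl2 (2.9 and 20.8, next to the floor) were not.

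TIMP genes for 3 of the 4 inhibitors had nearly the same signal on both arrays by their brightest probe sets. Timp1, a soluble inhibitor that inflammatory signals induce in many cells, read 5732 and 5638 (log2 ratio -0.02). Timp2, which inhibits MMPs and takes part in pro-MMP2 activation, read 8043 and 7319 (-0.14). All its 5 measured probe sets were lower with IFNg, from -0.60 to -0.14. Timp3, the matrix-bound inhibitor that also blocks ADAM17, read 3718 and 3964 (0.09), with -0.44 to 0.30 over 4 probe sets. Timp4 was dim at 27.8 and 6.5 (at least 1.36-fold lower). The sign for Timp1 is not settled, as its ratio was 0.09 with a loess curve, and only its size near 0 can be read. In the reference Timp1, Timp3 and Timp4 each lie inside a synapsin gene (Syn1, Syn3 and Syn2), and Adam17 overlaps Iah1, and whether any probe set reads the other gene was not examined.

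**Figure D3:**
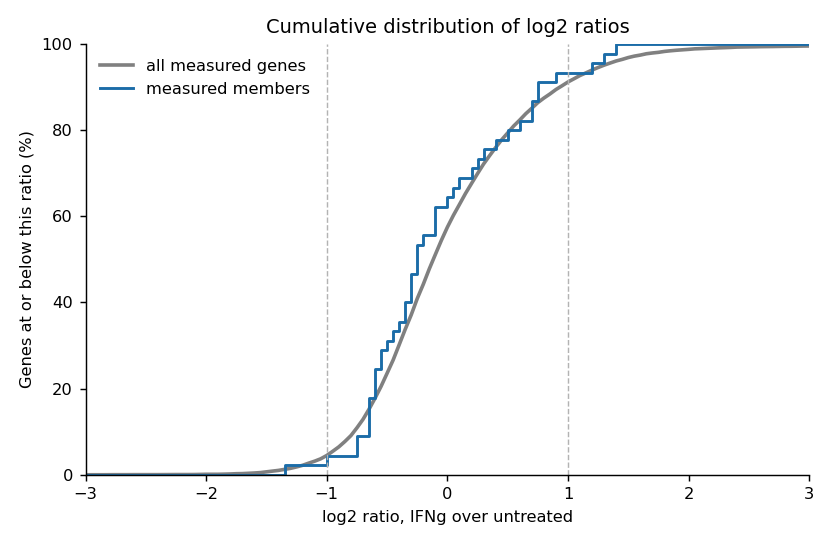
Cumulative share of genes (y axis, in percent) at or below each log2 ratio of IFNg over untreated signal (x axis), for 12743 measured genes (grey) and the 45 measured members (blue), with the x axis limited to 3 on each side. The curves run close together, with medians of -0.12 and -0.26, and no member reaches beyond 1.38 in either direction.

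Lists of genes around the proteases were read the same way, and some genes stand in more than 1 of them. Of 10 other metzincin proteases, the larger group to which these enzymes belong, 6 were measured. None of the 6 was at least 2-fold higher and 1 was at least 2-fold lower, beside 8.82% and 4.48% of all genes. The lower gene was Pappa2, whose product cuts an IGF-binding protein, at 49.5 and 15.1 (at least 2.43-fold). Bmp1, for procollagen C-proteinase, read 399 and 350. Adamdec1, a relative of the ADAM genes, read 3.3 and 34.3 (at least 1.68-fold higher).

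Of 26 genes for inhibitors, activators and membrane partners, 24 were measured. At least 2-fold higher was 1 (4.17%) and at least 2-fold lower were 3 (12.5%), beside 8.82% and 4.48% of all genes. A ratio below 0 was found in 20 of the 24, with a log2 median of -0.27, and in 7324 of the 12743 measured genes. A2m, for the protease trap alpha-2-macroglobulin, read 651 and 1572, a 2.42-fold higher signal. Reck, a membrane-anchored MMP inhibitor, read 797 and 592 (-0.43), and Bsg, for the MMP inducer basigin, 10144 and 9075 (-0.16). Among the tetraspanins that escort ADAM10, Tspan10 read 69.9 and 15.9 (at least 3.43-fold lower) and Tspan14 read 227 and 106 (2.14-fold lower), while Tspan5 (-0.88), Tspan17 (-0.29), Tspan15 (-0.18) and Tspan33 (0.01) lay within 2-fold. A second probe set of Tspan5 read 83.3 and 29.8 (-1.48), and with probe sets averaged Tspan5 was called lower. For the iRhom escorts of ADAM17, Rhbdf1 read 679 and 421 (-0.69) and Rhbdf2 read 108 and 63.4 (-0.77). Sdc1, for the heparan sulfate proteoglycan syndecan 1, read 1325 and 612 (2.17-fold lower), with 3 further probe sets from -0.96 to -0.47. Every probe set of Sdc1 was lower with IFNg, and the gene was within 2-fold after a loess curve or with its probe sets averaged. Tspan14 was within 2-fold with a pseudocount of 16, and Tspan10 had no measured signal with the higher floor. The only probe set of Tspan14 has an identifier that marks shared sequence, so the gene had no value with such probe sets left out.

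Of 25 genes for membrane proteins that ADAM10 or ADAM17 can shed, 23 were measured. Of the 23, 4 (17.4%) were at least 2-fold higher and none was at least 2-fold lower, beside 8.82% and 4.48% of all genes. The list was chosen with earlier results of these data known, and the part of that choice in this share was not tested. The 4 were the adhesion molecules Vcam1 (853 and 2497) and Icam1 (1177 and 2628), the membrane-bound chemokine Cxcl16 (175 and 444) and the EGF receptor ligand Ereg (26.3 and 72.3). The EGF receptor ligand Hbegf read 560 and 289 and the Notch ligand Jag1 192 and 99.2, log2 ratios of -0.96 and -0.95. A second probe set of Hbegf read 190 and 143 (-0.41), and further ones of Jag1 gave -0.80 and -0.37 (a bound). By their brightest probe sets both genes passed 2-fold lower when the arrays were set to a common 75th percentile. Tnfrsf1b, for a TNF receptor, read 243 and 141 (-0.79) and, by its second probe set, 101 and 41.7, and it was called lower when probe sets were averaged. Tnf itself was close to the floor, at 37.6 and 21.9. Over the list the log2 median was -0.09 (0.04 with a loess curve), close to that of all genes.

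In the plasminogen system, which activates several MMPs, none of the 6 measured genes passed 2-fold, beside 8.82% higher and 4.48% lower among all genes. Plaur, for the urokinase receptor, read 192 and 111 (log2 ratio -0.79) and Plat, for tissue plasminogen activator, 529 and 411 (-0.36). Plgrkt, for a plasminogen receptor, was higher at 225 and 387 (0.78), while Plau and Plg were at the floor on both arrays. Of 20 matrix substrates, all were measured, with a log2 median of -0.28. At least 2-fold lower was 1 (5.0%) and none was at least 2-fold higher, beside 4.48% and 8.82% of all genes. That gene was Eln, for elastin, a substrate of macrophage metalloelastase, at 1621 and 635 (2.55-fold lower), with 452 and 120 by its second probe set. The basement membrane genes Col4a1 (-0.40), Col4a2 (-0.67), Lamb1 (-0.79) and Lamc1 (-0.49) had lower signals with IFNg, and Nid1 (744 and 984, 0.40), for the basement membrane linker nidogen, had a higher one by its brightest probe set and a lower one by its second (-0.28). The second probe set of Lamc1 was past 2-fold lower, at 56.4 and 25.3. The proteoglycan genes lay on both sides, with Vcan (94.7 and 149, 0.66) and Dcn (4570 and 7056, 0.63) higher and Hspg2 (-0.44), Bcan (-0.37), Acan (-0.29, a bound) and Bgn (-0.25) lower. Further probe sets of Vcan were past 2-fold higher, at 65.7 and 144 and at 2.1 and 43.8.

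**Figure D4:**
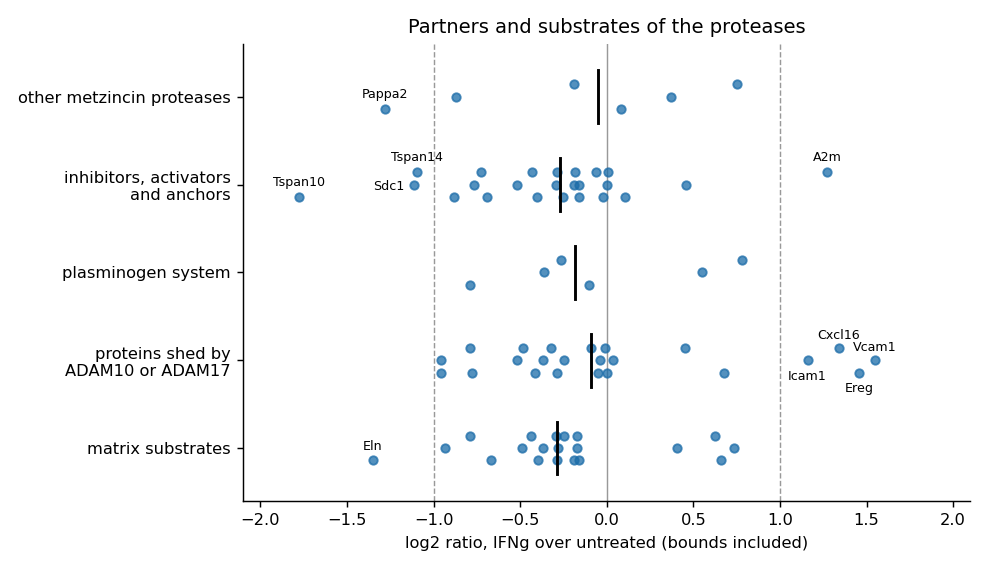
Log2 ratio of IFNg over untreated signal (x axis) for the measured genes of the 5 lists around the proteases (y axis), 1 point per gene, offset vertically for clarity, with bounds included and the median as a black bar and dashed lines at 2-fold. The named genes are those past 2-fold, and the medians lie between -0.28 and -0.05.

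How far the 5 members past 2-fold rest on the processing was read from 9 alternatives with the threshold kept at 2-fold. Adam8 passed in 9 of them and Adam17 and Adamtsl3 in 8, Adamts15 in 7 and Adamts9 in 6. Some alternatives could not change a call. Values without rescaling equal the reported ones, a lower floor leaves these genes as they are, and none of their probe sets is marked as shared. Averaging cannot move Adam8, Adamtsl3 or Adamts15, which have 1 probe set each. The tally therefore does not rank the genes. Adamts9 had no measured signal when the floor was raised to the 75th percentile of both arrays, and Adam17 (0.68) and Adamts9 (0.41) were within 2-fold when all probe sets of a gene were averaged. With that higher floor of 86.6 the IFNg signals of Adamts15 and Adamtsl3 lay below it, so their ratios became bounds of -0.22 and -0.65. Adamts15 and Adamts9 were also within 2-fold with a pseudocount of 16.

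**Figure D5:**
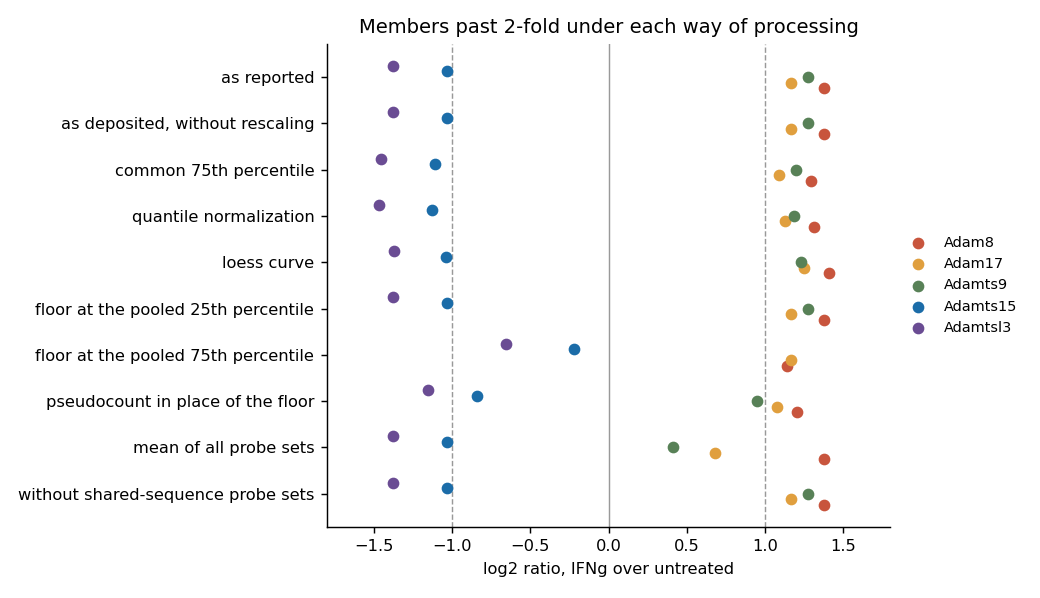
Log2 ratio of IFNg over untreated signal (x axis) of Adam8, Adam17, Adamts9, Adamts15 and Adamtsl3 as reported and under 9 alternatives (y axis), with dashed lines at 2-fold. The 3 higher genes stay right of 0 and the 2 lower ones left of 0 in every row that holds a point, and Adam8 stays past 2-fold in each.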

How the data were processed

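Total RNA of 2 mouse RPE cultures was turned into biotin-labelled cRNA and read on 1 array each, per the labels' protocols. The authors deposited a linear intensity per probe set. The summary method and background correction, and any genome build, were not given in the sources used here. The members and the gene lists were chosen with earlier results of these data known.

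Arrays were set to a common mean after trimming 2% at each end (already 100 as deposited), 64 control probe sets were left out, signals below 20.4 (the pooled median) were raised to it, and log2 was taken. Each gene was read by its brightest probe set (mean log2 over both arrays) that names no other gene. The 70 member symbols all had an Entrez identifier in the GRCm38.p6 reference table, and 0 changed. Its 15 further protein-coding symbols of this form were not analysed here. With 1 array per group no test was made. Ratios past 2-fold were counted.

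Members past 2-fold, all TIMP genes, the 4 of highest mean signal in each family, those nearest the threshold and those with disagreeing probe sets were named by rule. Others were named, after their values were seen, to account for the whole family. Probe sets differ in response, so levels of different genes are not comparable. Promoter sequences came from RefSeq. A planned search for protein motifs was not made, and a further promoter motif is not reported here.

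Alternatives were no rescaling, quantile normalization, a 75th percentile common to both arrays, a loess curve (span 0.3), a floor at the 25th or at the 75th percentile of both arrays, adding a pseudocount of 16 and no floor, averaging the probe sets of a gene, leaving out shared-sequence probe sets, and thresholds of 1.5-fold and 3-fold. The calculation was tested on simulated data. Python 3.11.15, numpy 2.4.6, pandas 2.3.3, statsmodels 0.14.6 and matplotlib 3.10.9 were used.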

Additional observations from a re-analysis of the deposited data

How the results depend on the processing

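The floor and the threshold both moved the counts. With the floor lowered to the 25th percentile of both arrays (5.8), there were 12 members at least 2-fold higher and 5 at least 2-fold lower, the background being 13.6% and 12.4% of genes, and the median log2 ratio of the ADAM genes was 0.46. Raised to the 75th percentile (86.6), it left 2 higher and 0 lower, and the ADAM median was 0.66 over 7 measured genes. Averaging all probe sets left 1 member higher (Adam8) and 3 lower, among them Adam19. At 1.5-fold 8 members were higher and 11 lower, and at 3-fold 0 and 0. The 4 ways of scaling the arrays that were tried as alternatives gave 3 and 2 each, the same genes. The median over all measured members ranged from -0.33 to -0.16, and the MMP median from -0.44 to -0.30.

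Of 385 member ratios under an alternative, 365 moved by less than the SD of 0.44 between probe sets, 20 moved by more (9 of them to a higher ratio) and 0 of the 5 called genes changed sign. Many of the 365 could not move. Values without rescaling equal the reported ones, and leaving out shared-sequence probe sets changed Adam15 alone. Averaging cannot move a gene with a single probe set, and a lower floor leaves genes above it on both arrays as they are. The count is therefore no measure of stability. The sign differed from the reported one in 6 of the 385, all in Adam12, Adam15, Adam28 or Timp1. No paired analysis was possible because each group has 1 culture, and leaving out a replicate was not possible for the same reason. Signals near the floor hold an unknown share of background, so ratios of dim genes such as Adamts9 are uncertain in size.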

Other observations

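A further 5 probe sets name a member together with another gene and entered no value above. Of these, 4 name Adam1a with Mapkapk5, with signals between 3.7 and 28.4 over both arrays, and 1 names both Adam6a and Adam6b, with 2.3 (untreated) and 1.3 (IFNg).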
